A study of Mus musculus with 9 samples.

Results

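Circular RNAs of mouse liver whose table entry names 1 exon of 1 host gene were described here. Of 11312 circular RNAs (circRNAs) in the deposited table, 2723 (24.07%) met the rule that the listed features begin with an exon, hold 1 exon entry and belong to 1 gene identifier. They came from 1792 host genes. The libraries were made from liver of wild-type C57 BL6 mice that were 8 weeks old. Controls were given saline. The APAP group was given acetaminophen at 500 mg/kg into the peritoneum. The dmPGE2+APAP group had dmPGE2 at 300 µg/kg as a pretreatment, 1 hour ahead of an equal APAP dose. Tissue was collected 6 hours later, with 3 libraries in each group. APAP in overdose injures hepatocytes, and dmPGE2 is a stable analogue of prostaglandin E2.

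A circRNA forms when the spliceosome joins the end of an exon backwards to the start of the same exon or of an exon upstream, so that the RNA has no free ends. It is counted by reads that cross this back-splice junction. A ring of 1 exon forms when an exon's own end is joined to its own start. Long introns on both sides, with repeats that pair with each other, are known to bring the splice sites of such rings together.

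The span between the ends of the ring equalled the listed exon in 300 of the 2723 members, and these are called whole-exon rings below, by their span alone. Only 229 of the 300 are exactly 1 exon of an annotated transcript. In 2380 members the listed exon lay at 1 end of a wider span, at the 3′ end in 1226 and at the 5′ end in 1154. In the remaining 43 it lay at neither end. Spans of the 2380 rings had a median of 7368 bases (quartiles 3415 and 14910), where the listed exon had a median of 141 bases. This division was made after the data were seen.

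**Figure D1:**
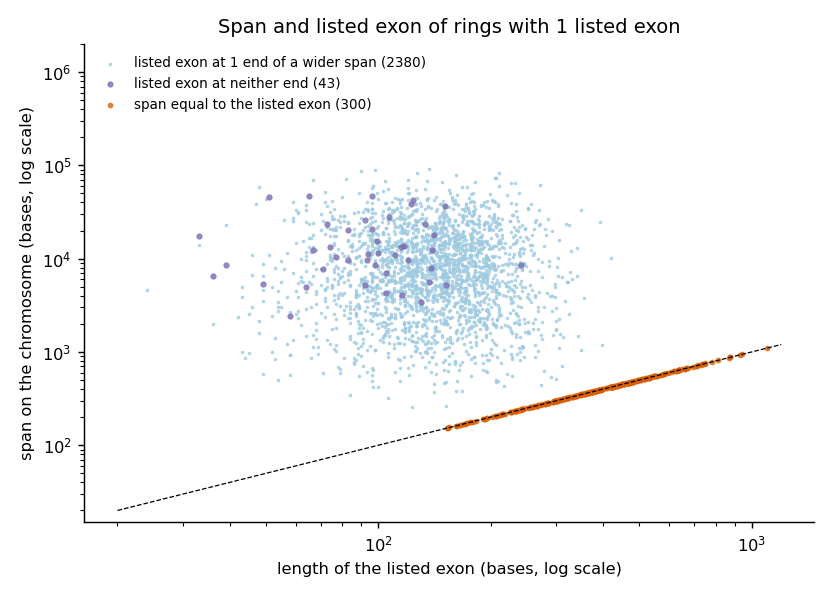
Span on the chromosome against the length of the listed exon for the 2723 members, both in bases on log scales; each point is 1 ring. The 300 whole-exon rings lie on the dashed line of equal lengths, and the other 2423 lie above it.

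Annotated gene models (GENCODE M21, build GRCm38) showed what the wider spans held. In 2160 of the 2380 rings, 1 transcript of the host gene had exon ends at both ends of the ring. Those transcripts placed a median of 3.5 exons between the ends (quartiles 3 and 5, up to 22), 2 exons in 500 rings and 3 or more in 1652. Spliced together, the annotated exons had a median length of 635 bases. The exon at the unlisted end was the longer of the pair in 1461 of the 2160 rings (67.64%), with a median of 178 bases. It was longer than 421 bases, the longest exon listed in this class, in 330 rings. The deposited spliced length gave the same picture only in rings with an identifier of the form mmu_circ. In the others of the class it followed the listed exon alone. In the 103 rings of the class that carry an identifier of the form mmu_circ, it equalled the listed exon in 0 and the annotated exons between the ends in 92 (median 803 bases against 140 for the listed exon). In the 44 whole-exon rings with such an identifier it equalled the listed exon in 43. In all 2277 rings of the class with an identifier of the form novel_circ, the deposited length was 1 below the length of the listed exon. Both ends lay at listed exons in 83.79% of the 7728 rings of 2 to 5 listed exons, against 11.02% of the members. Most members are therefore described below as rings with a wider span.

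The junctions of 6 whole-exon rings and 3 rings with a wider span are shown because the results turn on them. Each line gives the last 15 bases of the ring in lower case and its first 15 bases in capitals, read 5′ to 3′ from GENCODE transcripts, so the back-splice lies where the case changes.
Nfix mmu_circ_0001704: ttgtccacactccggGATGAGTTCCACCCG
Cdyl mmu_circ_0000451: ctgttaatggaaaagGTGGAAAGTATCGTT
Lrp6 novel_circ_0011905: agatccatcaagtggCGGCCCCTTTGTTGC
Insr novel_circ_0013613: gtcattgtcagaaagTGTGCCCTGGTATGG
Zfp609 mmu_circ_0001797: gtcaagtctgaaaagCAATGATGTTGTCCA
Rnf216 novel_circ_0011033: ttagtgaaagaaacgACACATAAACCTCAG
Erc1 novel_circ_0011754: caggaggaaaaccagCTGGCCCATGAGCTT
Mtus1 novel_circ_0013672: gcgtgtccggctctgGGAACGACAAGTCAT
Tcf20 mmu_circ_0000628: gtgccattgacgcagGAGGGCTGCTGGCCT

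A longer stretch is given for Nfix, the member with the most reads, and for Lrp6, both coding throughout in every annotated coding transcript. Nfix encodes a transcription factor of the nuclear factor I family, and Lrp6 a coreceptor of Wnt signals. The Nfix ring is exon 2 of 11 (chr8:84771784-84772315, minus strand, 532 bases), and the Lrp6 ring is exon 2 of 23 (chr6:134541652-134542045, minus strand, 394 bases). Each line holds the last 120 bases of the ring followed by its first 120, with the 15 bases on either side of the back-splice in capitals.
Nfix around the back-splice: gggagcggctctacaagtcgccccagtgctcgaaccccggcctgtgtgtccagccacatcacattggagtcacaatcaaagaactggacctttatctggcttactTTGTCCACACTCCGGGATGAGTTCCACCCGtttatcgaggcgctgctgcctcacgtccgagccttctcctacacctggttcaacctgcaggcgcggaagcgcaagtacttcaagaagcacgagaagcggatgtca
Lrp6 around the back-splice: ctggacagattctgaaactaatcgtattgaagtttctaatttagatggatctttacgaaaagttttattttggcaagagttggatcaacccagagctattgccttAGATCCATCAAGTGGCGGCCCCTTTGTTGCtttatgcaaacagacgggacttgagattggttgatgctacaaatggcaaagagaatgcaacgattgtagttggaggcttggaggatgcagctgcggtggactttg

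Whole-exon rings were made of long exons. Their length had a median of 381.5 bases (quartiles 293.8 and 482.2), from 153 bases in Ghr, the growth hormone receptor gene, to 1099 in Hipk3, which encodes a nuclear protein kinase. Between 250 and 550 bases lay 203 of the 300 (67.67%), 20 had at most 200 bases and 9 had more than 750. Of the 300, 228 were exactly 1 internal exon of an annotated transcript and 1 was a first exon. Of 167189 internal exons, taken from 1 transcript of each protein-coding gene, the median length was 124 bases, and over the 3258 internal exons of the genes that host these rings it was 136. Lengths over 250 bases were found in 83.33% of the 228 exons, in 6.734% of all internal exons and in 12.71% of those of the hosts. These shares describe exons and carry no test. How the calling of rings depends on length was not tested.

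The flanking introns were long as well. The intron before the ring had a median of 15140 bases and the intron after it 12600, against 1344 and 1246 over all internal exons and 2034 and 1840 over the hosts. Both introns were longer than those medians of all internal exons in 202 of the 228 (88.6%), and in 31.87% of all internal exons. Nfix is an exception on the upstream side, with 1038 bases before the ring and 43816 after it. Cdyl, which encodes a chromodomain protein that represses transcription, has 74020 and 40087 bases around a ring of 667 (chr13:35815909-35816575, plus strand).

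**Figure D2:**
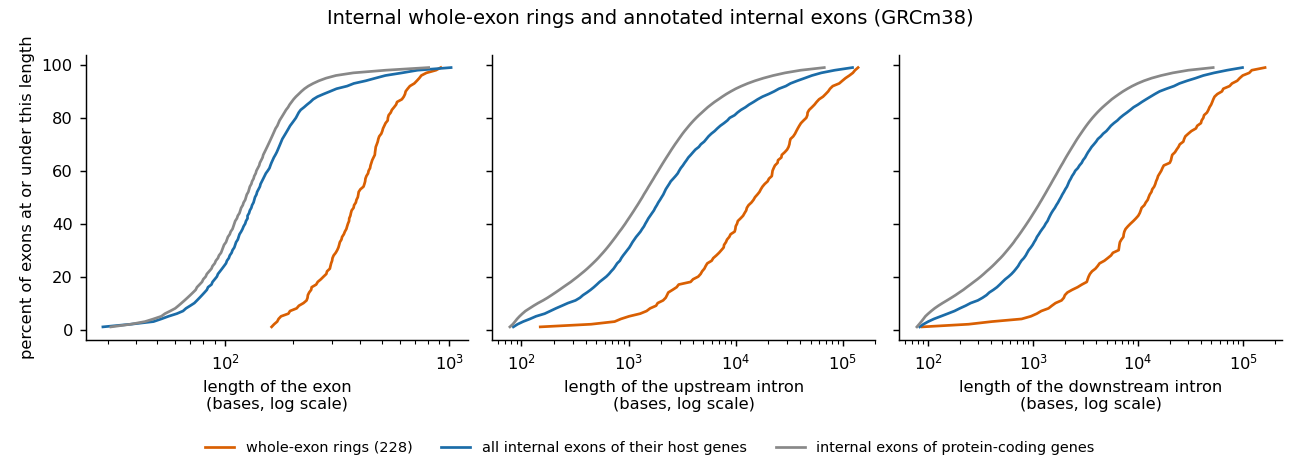
Cumulative percent of exons at or under a given length, for the exon itself, the intron upstream and the intron downstream (bases, log scale). The 228 internal whole-exon rings lie to the right of the internal exons of their host genes and of all protein-coding genes in the 3 panels, with medians of 390.5, 15140 and 12600 bases.

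Second exons were common among them. The exon was number 2 of its transcript in 110 of the 228 (48.25%), number 3 in 39 (17.11%) and number 4 in 17 (7.456%). Second exons made up 10.91% of all internal exons and 8.349% of those of the hosts. The second exons of all genes had a median length of 132 bases and introns of 2861 and 1784 bases, where the second exons in rings had 434.5 bases and introns of 21870 and 15110. An annotated start codon lay within 66 whole-exon rings, among them those of Zfp609, Hipk3, Insig2, Mbnl2 and Fbxw7. Of the 228 internal exons 65 held one (28.51%), against 3.735% of all internal exons. Coding sequence filled 153 of the exons and part of 67 more. Among the 153, 59 had a length that is a multiple of 3 (38.56%, against 40.64% of wholly coding internal exons of all genes).

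At the exon ends, the last base was G in 87.28% of the 228 exons and the last 2 bases were AG in 66.67%. Among 8197 internal exons of all genes with 250 to 550 bases these shares were 83.49% and 58.69%. The first base was G in 48.68% and 47.85%. The median GC content was 51.19% and 53.83%. No test was made of these shares.

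Hosts of whole-exon rings were mostly protein-coding genes, 289 of the 300 rings, with 5 in long intergenic noncoding RNAs, 4 in processed pseudogenes and 1 in an antisense gene. A host gene gave 1 whole-exon ring in 271 cases and 2 or more in 14. Over all members, 1237 hosts gave 1 and 555 gave 2 or more. Trip12, a ubiquitin ligase gene, gave the most with 11, all of a wider span and together 437 of the 722 reads of its 20 rings. Ankhd1, which encodes an ankyrin repeat protein, and Birc6, a ubiquitin ligase that inhibits cell death, followed with 9 each. In 86 of 300 cases the whole-exon ring was the only ring of its host. In the other 214 it held a median of 20.45% of the host's back-splice reads and over 50 percent in 67. Rings with a wider span that shared a host held a median of 7.475%.

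In 37 whole-exon rings neither end lay at an annotated exon end. Several lay in genes that liver cells transcribe at very high levels, among them Apoa1, Apoe, Ahsg, Apob, Serpina3k, Selenop and the mitochondrial gene mt-Co1. Together the 37 held 3184 reads, 25 were listed in 1 library only, and 6 passed the filter for testing. The most abundant was a ring in the processed pseudogene Gm9762 (chr3:78966402-78966775, minus strand) with a mean of 1765 CPM (back-splice reads of the ring per 1000000 circRNA reads of the library). Reads from a pseudogene may come from its parent gene, so this host is uncertain, as are those of Gm5424 and Gm4939.

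The number of back-splice reads set what could be seen. Back-splice reads numbered 69268 to 154449 in 8 libraries and 4362 in control 3, which lay 25.7-fold below their median. Control 3 listed 91 members, and the others listed 494 to 955. The smallest count above 0 was 2, and an entry of 0 may therefore hide 1 read or more. Among marker genes, rings of hepatocyte hosts, among them Alb, Apob, Cps1 and Cyp2e1, summed to 900.2 to 1146 CPM for control, 1179 to 1518 for APAP and 1302 to 1452 for dmPGE2+APAP, each over 7 of 10 genes. Rings of Adgre1 and Mrc1, taken here as macrophage markers, summed to 917 to 2039, 736.3 to 2595 and 1983 to 2149 CPM, over 2 of 5 genes. The control ranges of all marker sets include control 3, with 4362 back-splice reads in all. Of 6 sinusoidal endothelial markers 4 had rings (0 to 369.1, 110.4 to 288.7 and 122 to 356.8 CPM), of 5 cholangiocyte markers 1 (Pkhd1, 0 to 230.8, 182.7 to 331.3 and 200.4 to 464.2) and of 6 lymphocyte and neutrophil markers 1 (Ets1, 0 to 58.27, 0 to 174.8 and 60.54 to 182.5). None of 5 stellate cell markers was listed. Their part in the results below was not tested, and in whole liver fewer cells of a type and less RNA per cell cannot be told apart.

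Members were thinly covered, the whole-exon rings less so. The members held 107415 back-splice reads, 11.8% of all, and the whole-exon rings 40241 of these (4.419%). A member had a median of 10 reads summed over the 9 libraries, and 1418 (52.07%) were listed in 1 library only. For whole-exon rings the median was 18.5 reads and 125 of 300 (41.67%) were listed in 1 library. For the 7728 rings of 2 to 5 listed exons these values were 18 reads and 33.89%. Listed in 8 or 9 libraries were 53 whole-exon rings (17.67%), 91 rings with a wider span (3.756%) and 1293 rings of 2 to 5 exons (16.73%). At least 5 reads in 3 or more libraries were found in 659 members, 122 of them whole-exon rings, and only these entered the tests of single rings.

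Reads were concentrated in a small number of rings. The 12 most abundant members held 21.79% of member reads and the top 100 held 53.18%, 48 of them whole-exon rings. The Nfix ring had 1135, 1185 and 55 reads in control 1 to 3, 749, 876 and 568 in APAP 1 to 3, and 956, 705 and 783 in dmPGE2+APAP 1 to 3. In CPM, control 3, on 55 reads, was the highest at 12610, and the other 8 libraries overlapped between groups at 6821 to 9117. Its mean over the 9 libraries was 8226 CPM, and it held 91.9% of the reads of the 7 Nfix rings. Cdyl followed among whole-exon rings with 392, 259 and 0 control reads, 297, 305 and 226 under APAP, and 369, 251 and 329 with dmPGE2. The 8 libraries other than control 3 lay at 1993 to 3263 CPM. Lrp6 had 334, 217 and 5 reads, then 185, 183 and 105, then 227, 210 and 198. Insr, the insulin receptor gene, had 176, 126 and 7, then 150, 129 and 95, then 139, 139 and 193 (exon 2 of 21, chr8:3258383-3258934, minus strand). In CPM the groups overlapped for both, at 1146 to 2163 for Lrp6 and 969.4 to 1681 for Insr.

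Rings with a wider span were also among the 12. Mtus1, a microtubule-associated tumour suppressor gene, had a mean of 3746 CPM and a listed exon of 196 bases, while its transcript placed 2 exons of 2423 bases in all between the ends (chr8:41076232-41084840, minus strand). For Crebrf, a regulator of the endoplasmic reticulum stress factor CREB3, the listed exon was 126 bases, and both the deposited and the annotated spliced lengths were 1216 (2671 CPM). For Tcf20, a transcriptional coregulator, the listed exon was 94 bases and both spliced lengths were 5866. The Tcf20 ring had 61, 93 and 27 control reads, 60, 47 and 33 under APAP, and 52, 33 and 38 with dmPGE2, so that control 3 stood at 6190 CPM and the other libraries at 331 to 715.5. Ash1l, a histone methyltransferase gene (1461 CPM), Spen, a corepressor gene (1296 CPM), and Prox1, a transcription factor of hepatocytes (1290 CPM), were also among the 12. Prox1 stood at 5502 CPM in control 3, on 24 reads, and had a mean of 763.2 CPM over the other 8 libraries. Without control 3 the mean of Tcf20 was 458 CPM, and Prox1 and Tcf20 ranked 24 and 40 among members. Mtus1 and Crebrf stood at 9399 and 5273 CPM in control 3, and had means of 3040 and 2345 over the other 8 libraries. The means of Ash1l and Spen over those 8 were 1328 and 1458 CPM.

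Longer whole-exon rings had higher levels. Spearman's rho between length and mean CPM was 0.3603 over the 300 rings, which share libraries and hosts, so it is given as a description. Mean CPM had a median of 9.202 in the 85 rings of up to 300 bases, 20.08 in the 147 of 301 to 500 and 66.05 in the 68 of more than 500. Over the 2380 rings with the exon at 1 end, rho was 0.04978 with the length of the listed exon and 0.02637 with the span.

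The share of back-splice reads held by members was compared between groups. All members together held 11.29%, 11.64% and 11.23% in control, 12.35%, 12% and 11.26% in APAP and 11.97%, 12.24% and 11.72% in dmPGE2+APAP, with overlapping groups (exact permutation p = 0.2286 over 1680 arrangements). Whole-exon rings held 4.157%, 4.329% and 3.829% in the control libraries. They held 4.594%, 4.543% and 4.537% in APAP, and 4.42%, 4.541% and 4.437% with dmPGE2 before it. The 3 control libraries lay below the other 6 (4.105% ± 0.2542 against 4.558% ± 0.03119 and 4.466% ± 0.06557, SD, n = 3, exact permutation p = 0.007143). Without control 3 the control mean was 4.243% ± 0.1211 (SD, n = 2) and the exact permutation p was again 0.007143. Adjusted over the 15 group tests made on the members and their subclasses, p was 0.1071 with control 3 and 0.08033 without it, so neither passed. Each pair of groups gave an exact permutation p of at least 0.1, the smallest that 3 against 3 allow. Without the 10 most abundant whole-exon rings the shares were 2.097% ± 0.277, 2.525% ± 0.2023 and 2.418% ± 0.1079 (SD, n = 3, exact permutation p = 0.06429). Rings with a wider span held 7.284% ± 0.1358, 7.31% ± 0.5307 and 7.51% ± 0.2078 (SD, n = 3, exact permutation p = 0.7036). Rings of 2 to 5 listed exons were also lower in each control library (75.92%, 76.1% and 71.39%) than in the other 6 (76.29% to 78.23%), with an exact permutation p of 0.04643, and 0.2143 without control 3. With only exonic rings as the denominator, an alternative chosen after seeing the data, whole-exon rings differed by 0.333 points between APAP and control (exact permutation p = 0.01071 over the 3 groups).

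**Figure D3:**
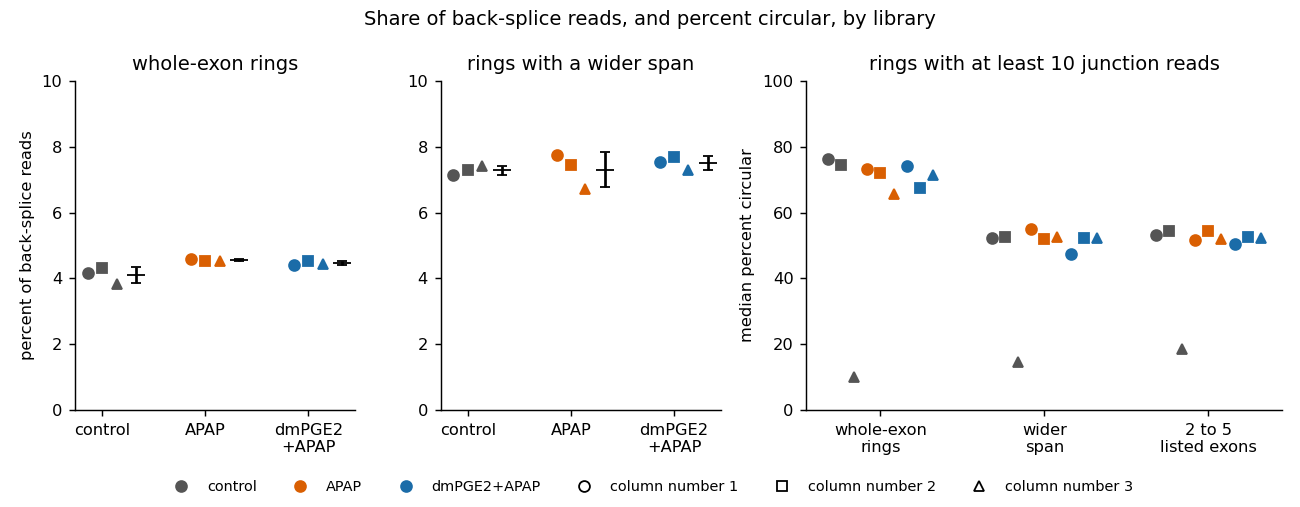
Percent of back-splice reads in whole-exon rings and in rings with a wider span by group (points are libraries, bars the mean and SD, n = 3), and the median percent circular over rings with at least 10 junction reads by class. Whole-exon rings lie at 65.61% to 76.33% in the 8 libraries other than control 3, above the other classes.

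The circular share was measured at each ring as 2 times the junction reads over 2 times the junction reads plus the reads at its ends that do not cross the back-splice, called non-junction reads. It could be computed for 2426 members. In the other 10.91%, and in 16% of whole-exon rings, the deposited list of non-junction reads could not be split by library. It had become a single number, or could be read as one because each item after the first had 3 digits. This share was 10.28% in rings with a wider span and 17.16% in rings of 2 to 5 listed exons. The loss can thus depend on the size of the non-junction reads, and its effect on the circular share was not tested. Per ring, whole-exon rings stood above the rest. Among rings with at least 10 junction reads in a library, the median of whole-exon rings was 76.33%, 74.6% and 9.961% in control, 73.31%, 72.09% and 65.61% in APAP, and 74.08%, 67.42% and 71.39% in dmPGE2+APAP. For rings of 2 to 5 listed exons it was 53.33%, 54.55% and 18.57%, then 51.73%, 54.55% and 51.97%, then 50.51%, 52.46% and 52.23%. In control 3 only 2 whole-exon rings had 10 junction reads. The within-library difference was 16.1 ± 9.865 percentage points (SD, n = 9, above 0 in 8 of 9, exact sign-flip permutation p = 0.007812, 0.01562 adjusted over 4 such differences). Without control 3 it was 19.19 ± 3.619 points (SD, n = 8, above 0 in 8 of 8, exact sign-flip permutation p = 0.007812, the smallest that 8 libraries allow, adjusted 0.01042). Control 3 was short of junction reads more than of non-junction reads. At rings of 2 to 5 listed exons it had 146500 non-junction reads, beside 177300 in APAP 3 and 188900 in dmPGE2+APAP 3. Its junction reads there were 2174, beside 37560 and 60570. Why control 3 differed was not tested.

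Whole-exon rings also stood 17.07 ± 9.138 points above rings with a wider span (SD, n = 9, exact sign-flip permutation p = 0.007812, adjusted 0.01562). Rings with a wider span and rings of 2 to 5 exons differed by -0.972 ± 2.22 points (SD, n = 9, exact sign-flip permutation p = 0.2344). This use of the median per library was chosen after the data were seen. Over rings with at least 100 junction reads in all, the median was 73.91% in 55 whole-exon rings, 58.03% in 89 rings with a wider span and 55.2% in 957 rings of 2 to 5 exons. Between groups, the medians of whole-exon rings did not differ beyond their spread (exact permutation p = 0.9929, and 0.2929 without control 3).

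Summed reads gave another picture, and in some libraries 1 ring held most of the non-junction reads. By sums, all members stood 11.29 ± 5.63 points below rings of 2 to 5 exons (SD, n = 9, below in 9 of 9, exact sign-flip permutation p = 0.003906, adjusted 0.007812 over 8 differences), and whole-exon rings stood 3.629 ± 18.39 points above them (SD, n = 9, above in 4 of 9, exact sign-flip permutation p = 0.5547). In dmPGE2+APAP 1, 1 ring within Apoe, which encodes an apolipoprotein, held 84.66% of the non-junction reads at whole-exon rings, with 157882 non-junction and 20 junction reads. In APAP 2 a ring within the noncoding gene Gm26917 held 91.35% on 3 junction reads, and in control 3 a ring within Selenop, a secreted selenium carrier, held 77.99% on 7. The summed percent circular of whole-exon rings ran from 0.6972% in control 3 through 4.69% in dmPGE2+APAP 1 to 65.81% in dmPGE2+APAP 3. Longer whole-exon rings had higher circular shares, with medians over rings of 21.43% up to 300 bases, 37.65% at 301 to 500 and 74.67% above 500. Mean CPM rose over the same classes, with medians of 9.202, 20.08 and 66.05. Length and abundance were not separated here.

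Among members with at least 100 usable junction reads, the 3 highest were the rings of Srgap1 (97.78%), Cdk8, a kinase of the Mediator complex (96.6%), and Pde5a, the phosphodiesterase of cyclic GMP (96.48%). The Pde5a ring is a whole exon. The 3 lowest were those of Adra1b, an adrenergic receptor gene (16.14%), Senp6, a SUMO protease gene (17.69%), and Map2k1, a kinase gene of the ERK cascade (18.95%), none of them a whole-exon ring. The Cdyl ring stood at 94.48% for control, 95.28% for APAP and 95.23% for dmPGE2+APAP, over 2428 junction reads in all. The Nfix ring stood at 84.47%, 92.61% and 92.8% over 7012. The control value of Nfix includes control 3, where the ring had 55 reads. In control 3 the 2 whole-exon rings with at least 10 junction reads, Nfix among them, had a median of 9.961% (quartiles 7.174% and 12.75%). The Nfix share without control 3 was not computed, and its difference between groups was not tested.

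Entries of 0 beside high counts were frequent in members. Where another library of the same group had at least 20 reads of the ring, 182 of 1258 entries were 0 in the 8 libraries other than control 3 (14.47%), against 411 of 8780 (4.681%) for rings of 2 to 5 exons. For whole-exon rings it was 78 of 492 (15.85%), in 41 rings, and for rings with a wider span 104 of 766 (13.58%). By library the share of all members ran from 7.586% in control 1 to 21.21% in APAP 3, and was 74.77% in control 3. It was above that of rings of 2 to 5 exons in 9 of 9 libraries, by 9.239 ± 3.48 points (SD, n = 9, exact sign-flip permutation p = 0.003906, the smallest that 9 libraries allow, adjusted 0.007812 over 8 differences). Groups overlapped (exact permutation p = 0.8857 over the 3 groups, and 0.5643 without control 3). In none of these entries did another ring of the table start and end within 10 bases of the missing one.

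Among whole-exon rings these entries were most frequent in the longest. Up to 300 bases 3 of 40 entries of whole-exon rings were 0 (7.5%), and at 301 to 500 bases 12 of 206 (5.825%). At 501 to 750 bases it was 44 of 223 (19.73%), and above 750 bases 19 of 23 (82.61%). Rings of 2 to 5 exons, classed by the summed length of their listed exons, had 8.378%, 4.602%, 2.11% and 0 of 80 entries, the last allowing a share of up to 3.75%. Both ends lay at listed exons in only 83.79% of these rings, so their length can be understated. Rings with a wider span showed no such rise, with 12.5%, 19.26%, 13.79% and 13.11% by annotated spliced length. The last class holds only 9 whole-exon rings and 10 rings of 2 to 5 exons, and these length classes were chosen after the data were seen and carry no test. Of those 9 rings, all but Zfp609 had reads in at most 1 library of a group. A lone library with reads is not itself counted, so those rings could add only entries of 0. Hipk3 had 195 reads in control 2, 196 in APAP 1 and 0 in the other 7 libraries. Shoc2, a scaffold gene of RAS signalling (930 bases), had 127 in control 1 and 91 in dmPGE2+APAP 2 and 0 elsewhere. Rnf216, a ubiquitin ligase gene (810 bases), had 77 reads in control 1, then 64 in APAP 1, then 75 in dmPGE2+APAP 3, and 0 elsewhere. Each of these rings was thus either listed with a high count or not listed, in every group. The chromatin genes Pwwp2a (83 reads in APAP 2) and Kat6b (84 in control 2 and 85 in APAP 2) showed the same all-or-none counts.

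**Figure D4:**
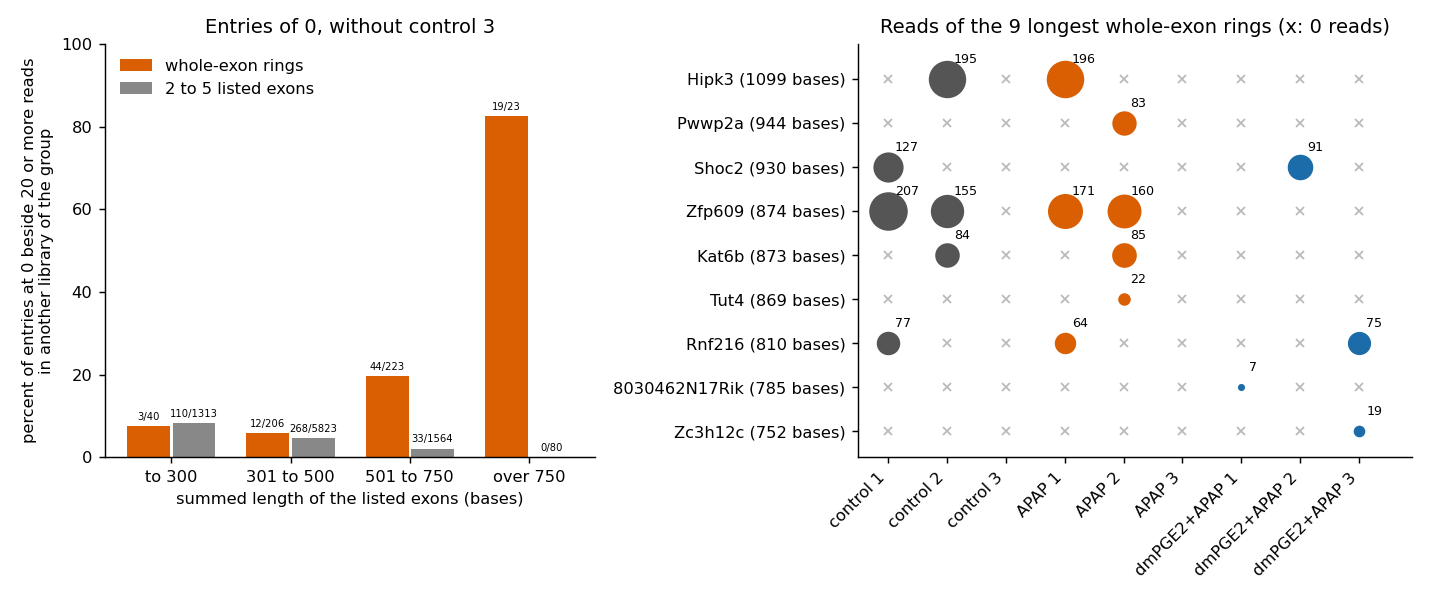
Percent of entries at 0 beside at least 20 reads in another library of the group, by summed listed exon length (bases), without control 3. Numbers are entries at 0 of all such entries. The other panel gives reads of the 9 longest whole-exon rings in each library (area in proportion to reads, crosses at 0). Above 750 bases 19 of 23 whole-exon entries were 0, and 0 of 80 in rings of 2 to 5 exons.

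Which rings differ 6 hours into APAP injury is the question of the first comparison, APAP against control. By edgeR's quasi-likelihood test with Benjamini-Hochberg adjustment over 4331 rings, 2 of 659 members passed, both higher and none a whole-exon ring. Of all rings tested 0.139% passed, 0.0924% higher and 0.0462% lower. The filter did not treat both directions alike. Of the 659 members tested, 97 were at 0 in all control libraries, and 589 were at 0 in control 3. Both members called entered through treated libraries alone, while a ring listed only in control needed at least 5 reads in control 3. DESeq2 passed Neat1 and Insig2, and limma-voom Neat1 and Cdk8. DESeq2 gave no adjusted p for 311 of the 659 members here. At an unadjusted p under 0.05 stood 64 members (9.71%), 19 of them whole-exon rings (15.6% of 122), against 5.17% of all rings tested. By DESeq2 it was 46 members and by limma-voom 79. Whole-exon rings also had more entries of 0 beside high counts (15.85%, against 4.681% in rings of 2 to 5 exons). How these entries bear on the p-values was not tested. The median log2 fold change was 0.21 over members and 0.38 over whole-exon rings, beside 0.16 over all rings tested. Without control 3 these medians were 0.01, 0.15 and -0.06. CPM ranges lay apart upwards in 49 members (7.44%) and downwards in 7 (1.06%), beside backgrounds of 6.93% and 1.82%. Without control 3, 4 members passed, 3 higher and 1 lower, beside 0.231% of all rings (0.115% in either direction), and 43 members had an unadjusted p under 0.05 (6.53%, beside 4.64%). Ranges then lay apart upwards in 54 members (8.19%, beside 8.4%) and downwards in 65 (9.86%, beside 10.8%). The same filter applied to these medians and ranges. Without control 3 a ring listed only in control 1 and control 2 could not enter.

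Neat1, a nuclear noncoding RNA on which paraspeckles are built, gave 1 of the calls. Its ring novel_circ_0006472 (chr19:5827505-5828042, minus strand, listed exon of 290 bases in a span of 538) was listed at 0 in the 3 control libraries. It had 36, 53 and 39 reads in APAP, and 17, 7 and 15 with dmPGE2. The 3 groups did not overlap, with dmPGE2+APAP between the others. APAP stood at 459.5 ± 117.8 CPM and dmPGE2+APAP at 114.1 ± 38.01 (SD, n = 3), both higher than control (edgeR adjusted p = 1.026e-05 and 0.009374). No fold is given against a group listed at 0, since a 0 in this table may hide reads. The second comparison did not pass without control 1 (edgeR adjusted p = 0.2327) or without control 2 (0.1692). From APAP to dmPGE2+APAP its log2 fold change was -1.90 ± 0.74 (SE, edgeR adjusted p = 0.9997). No annotated transcript of Neat1 had exon ends at both ends of this ring.

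The other call was Erc1, a gene for a scaffold protein of the presynaptic active zone. No control library listed its ring novel_circ_0011754 (chr6:119824386-119825819, minus strand, 2 annotated exons between the ends). The APAP libraries had 25, 0 and 42 reads, and those with dmPGE2 had 0, 43 and 47. Each treated group thus overlapped control through 1 library at 0. By edgeR both were higher than control (adjusted p = 0.0002296 and 0.0001096), although the same ring was listed at 0 in 1 library of each treated group beside 42 and 47 reads in another. DESeq2 passed neither (adjusted p = 0.7601 and 1), and without control 1 edgeR passed neither (adjusted p = 0.1895 and 0.1802).

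A pair of whole-exon rings passed once control 3 was left out. Insig2, which encodes a membrane protein that holds back sterol synthesis, had 36, 55 and 2 control reads, 107, 122 and 62 under APAP, and 74, 63 and 93 with dmPGE2 (exon 2 of 6, chr1:121319597-121319972, minus strand, 376 bases). In CPM the groups did not overlap, with control at 371.6 ± 121.2, APAP at 998.1 ± 110.4 and dmPGE2+APAP at 686.6 ± 107.6 (SD, n = 3). The log2 fold change from control to APAP was 1.62 ± 0.47 (SE, edgeR adjusted p = 0.1983), and 1.54 ± 0.33 without control 3 (edgeR adjusted p = 0.02203). DESeq2 passed it with all libraries (adjusted p = 0.004265). Kcnn2, a calcium-activated potassium channel gene, had 48, 83 and 0 control reads, 15, 17 and 7 under APAP, and 68, 66 and 53 with dmPGE2 (exon 6 of 11, 419 bases, the only ring of its host). The APAP libraries at 101.1 to 155.3 CPM lay below all others except control 3. The log2 fold change to APAP was -1.88 ± 0.44 without control 3 (SE, edgeR adjusted p = 0.03625) and -1.60 ± 0.57 with it (edgeR adjusted p = 0.6161).

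What dmPGE2 ahead of the overdose changes was read from dmPGE2+APAP against APAP. By edgeR 1 of 659 members passed, the whole-exon ring of Zfp609, beside 0.0693% of all rings tested (0.0231% higher and 0.0462% lower). DESeq2 and limma-voom passed 0 members, with 31 and 55 at an unadjusted p under 0.05. At an unadjusted p under 0.05 stood 28 members (4.25%), beside 3.81%. The median log2 fold change was 0.08 over members, 0.13 over whole-exon rings and 0.08 over all rings. Ranges lay apart upwards in 30 members (4.55%) and downwards in 22 (3.34%), beside 5.03% and 4.13%. With control 3 left out of the fit, 2 members passed, Kcnn2 higher (beside 0.0462%) and Zfp609 lower (beside 0.0231%), and 23 had an unadjusted p under 0.05 (3.49%, beside 3.21%).

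Zfp609 encodes a zinc finger protein, and its second exon is widely known as a circRNA. The ring mmu_circ_0001797 (exon 2 of 10, chr9:65794622-65795495, minus strand, 874 bases) had 207, 155 and 0 control reads, 171, 160 and 0 under APAP, and 0 in each of the 3 dmPGE2+APAP libraries. The groups overlapped, since control 3 and APAP 3 were also at 0. By edgeR dmPGE2+APAP was lower than APAP and than control (adjusted p = 1.073e-23 and 3.618e-23). APAP 3 was at 0 as well, beside 171 and 160 reads in its group. DESeq2 did not pass it against APAP or control (adjusted p = 0.7874 and 0.6803), and limma-voom did not pass it against APAP (adjusted p = 0.2829). With 874 bases it belongs to the whole-exon rings above 750 bases in which 19 of 23 entries beside a high count were 0. The entries above 0 in that class were those of Zfp609 itself, in control 1, control 2, APAP 1 and APAP 2. The class share therefore cannot be used to read the 0 entries of this ring. The other Zfp609 ring among the members, mmu_circ_0001796, begins at the same base and runs on to a further exon (2 exons, 1100 bases). It had 16, 8 and 0 control reads, 5, 7 and 0 under APAP, and 18, 0 and 14 with dmPGE2.

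Next in order and not passing were Kcnn2, Smarca2 and Lima1. Kcnn2 stood at 131.5 ± 27.72 CPM in APAP and 564 ± 102.1 with dmPGE2 (SD, n = 3), without overlap. Its log2 fold change was 2.12 ± 0.56 (SE, edgeR adjusted p = 0.1873), and 2.10 ± 0.41 with control 3 left out of the fit (edgeR adjusted p = 0.009321). Smarca2, a chromatin remodelling ATPase gene, had 21, 24 and 0 control reads, 0 in each APAP library, and 24, 16 and 0 with dmPGE2 (edgeR adjusted p = 0.8988). Lima1, an actin-binding protein gene, had 15, 20 and 0, then 0 in APAP, then 8, 11 and 16 (edgeR adjusted p = 0.9997).

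**Figure D5:**
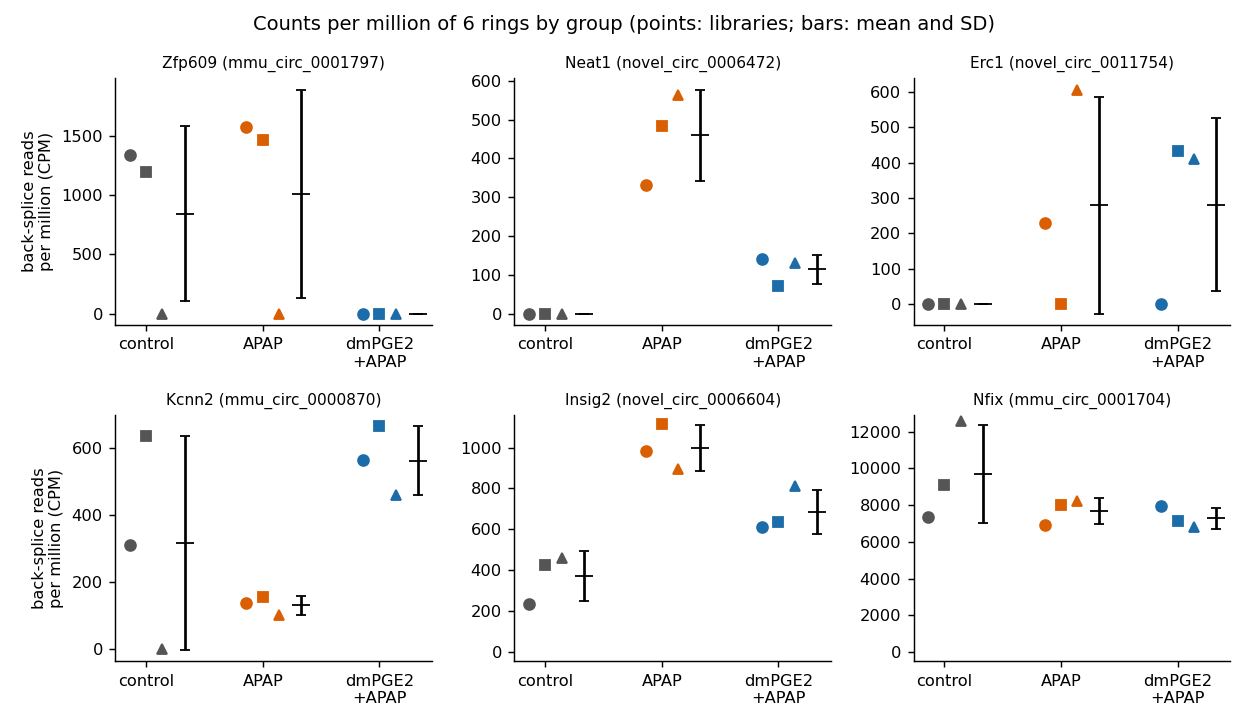
CPM of 6 rings by group, with points for libraries and bars for the mean and SD (n = 3). Zfp609 is at 0 in control 3, APAP 3 and every dmPGE2+APAP library, Neat1 is at 0 in every control library, and the APAP libraries of Insig2 lie above and those of Kcnn2 below both other groups, except for control 3 of Kcnn2 at 0.

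In dmPGE2+APAP against control, 3 of 659 members passed by edgeR, Neat1 and Erc1 higher and Zfp609 lower, beside 0.115% of all rings tested (0.0693% higher and 0.0462% lower). DESeq2 passed 0 members, with 37 at an unadjusted p under 0.05, and limma-voom passed Zfp609. This comparison shares its libraries with the others. At an unadjusted p under 0.05 stood 52 members (7.89%) and 16 whole-exon rings (13.1%), beside 4.34%. By limma-voom it was 71 members. The limits of the filter and of entries of 0, given for the first comparison, apply here too. The median log2 fold change was 0.25 over members, 0.52 over whole-exon rings and 0.24 over all rings, and 0.04, 0.29 and 0.00 without control 3. Ranges lay apart upwards in 66 members (10%) and downwards in 7 (1.06%), beside 8.1% and 1.73%. Without control 3, 3 members passed (beside 0.0924%), 2 higher (0.0693%) and 1 lower (0.0231%), and 32 had an unadjusted p under 0.05 (4.86%, beside 3.63%). Ranges then lay apart upwards in 71 members (10.8%, beside 9.47%) and downwards in 66 (10%, beside 10.4%). Closest to passing were the rings of Zfp644, a zinc finger gene (mmu_circ_0001382, 0 in control, 30, 0 and 0 in APAP, 38, 30 and 0 in dmPGE2+APAP, edgeR adjusted p = 0.06904) and Ercc6, a gene of transcription-coupled DNA repair (mmu_circ_0000521, a whole exon of 730 bases, 0 in control, 50, 0 and 0, then 15, 0 and 34, edgeR adjusted p = 0.1638). In the joint test of the 3 groups, Neat1, Erc1 and Zfp609 passed, 3 of 659 members beside 0.208% of all rings tested, and without control 3 it was 4 members beside the same share.

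Host genes were grouped by function, and the counts below stand beside 0.139%, 0.0693% and 0.115% of all rings tested that passed edgeR in the 3 comparisons, and 5.17%, 3.81% and 4.34% with an unadjusted p under 0.05. Of 9 genes known for widely reported rings, 6 hosted 9 members, 4 of them whole exons (Nfix, Cdyl, Zfp609 and Hipk3), and 1 of 5 tested passed edgeR in both dmPGE2+APAP comparisons, the Zfp609 ring that DESeq2 did not pass. Chromatin regulators held 105 members in 35 of 51 genes, 14 of them whole exons. Of their 28 tested members 0 passed edgeR in any of the 3 comparisons, and 4, 2 and 4 had an unadjusted p under 0.05, beside 5.17%, 3.81% and 4.34% of all rings. Their median log2 fold changes were 0.22 for APAP against control, 0.00 for dmPGE2+APAP against APAP and 0.11 for dmPGE2+APAP against control. The Cdyl and Ash1l rings were the most abundant of them, and Dnmt3a, a DNA methyltransferase gene, had 67, 59 and 3 control reads, 53, 63 and 24 under APAP, and 80, 68 and 42 with dmPGE2, with overlapping CPM.

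Ubiquitin ligase genes held 71 members in 27 of 44 genes, 4 of them whole exons, and 0 of 16 tested passed edgeR (3, 3 and 2 at an unadjusted p under 0.05, beside the same shares). Fbxw7, which marks cyclin E and MYC for breakdown, had a whole-exon ring of 579 bases with 134, 117 and 0 reads, then 111, 94 and 58, then 112, 72 and 81. Kinases held 56 members in 29 of 57 genes, 5 of them whole exons, and 0 of 10 tested passed edgeR (1, 0 and 1 at an unadjusted p under 0.05), while limma-voom passed Cdk8 for APAP against control. The Pik3r1 ring, exon 2 of the regulatory subunit gene of PI3 kinase, lay at 563.3, 623.2 and 0 CPM for control, 809.8, 776.6 and 1213 in APAP and 1087, 817.3 and 766.6 in dmPGE2+APAP, with every treated library above every control. Zinc finger transcription factors held 29 members in 16 of 37 genes, and 1 of 11 tested passed edgeR, the same Zfp609 ring. RNA-binding and splicing factors held 19 in 12 of 42 genes, and 0 of 5 tested passed edgeR (0 at an unadjusted p under 0.05). Mbnl2, a splicing regulator, had a whole-exon ring of 619 bases with 101, 92 and 0 reads, then 83, 54 and 26, then 87, 95 and 117.

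Genes of lipid and bile acid metabolism held 33 members in 17 of 38 genes, 6 of them whole exons, and 0 of 7 tested passed edgeR (2, 0 and 2 at an unadjusted p under 0.05), while DESeq2 passed Insig2 for APAP against control. Besides Insig2 they included Abcb11, the bile salt export pump (10, 23 and 0 reads, then 8, 8 and 7, then 8, 9 and 9), and Ppara, the receptor that drives fatty acid oxidation (14, 13 and 0, then 6, 0 and 12, then 0, 9 and 7). Secreted plasma proteins held 28 members in 20 of 39 genes with 2 tested, amino acid and carbohydrate metabolism 24 in 12 of 42 with 7 tested, and drug metabolism 17 in 12 of 32 with 1 tested. Stress response and glutathione genes held 13 in 7 of 25 with 1 tested, and inflammation genes 6 in 4 of 26 with 1 tested, the Il6ra ring. None of these tested members passed edgeR, DESeq2 or limma-voom, and 2 had an unadjusted p under 0.05 by edgeR for APAP against control, 1 each in drug metabolism and inflammation. Il6ra, a subunit of the interleukin 6 receptor, had 15, 0 and 0 control reads, 11, 30 and 24 under APAP, and 5, 16 and 8 with dmPGE2.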

How the data were processed

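Back-splice reads were measured in 9 libraries of liver RNA. Per the labels' protocols, ribosomal RNA was removed, dUTP kept the strand, and no step that digests linear RNA is named. The submitters' processing notes name HISAT2 and GRCm38 (mm10) but give no role for either. Which program called the rings, with which filters, is not given in the sources used here. The deposited table holds whole-number counts of junction reads that the authors left unscaled, per the file headers. Its 9 columns of TPM values were not used. The control columns are headed BC, a code that the labels leave unexplained. They were taken as control by elimination and keep numbers of their own. Since no label ties a library to an animal, the spread behind each p-value may be technical.

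Starts were set to count from 1. A ring needed 5 or more reads in 3 or more of the 9 libraries, which 4331 of 11312 had, to enter edgeR 4.0.16 (quasi-likelihood test, TMM scaling, 1 mean per group, Benjamini-Hochberg adjustment, threshold 0.05), in R 4.3.3. SE is the absolute log2 fold change over the square root of F. Alternatives were DESeq2 1.42.0, limma-voom of limma 3.58.1, other scalings and filters, and each library left out. Values per library were compared by exact permutation, two-sided, in Python 3.11.15. The edgeR script was tested on simulated data. CPM divides by the library's circRNA total, which was 4362 to 154449 reads. The members, host lists and tests were chosen with earlier results of these data known. Rings were named by a rule: members past the threshold, the 12 most abundant, the 4 with the smallest p per comparison, the longest and shortest tested, the hosts with the most members, the 6 entries of 0 beside the highest counts, up to 3 per host list, and the extremes of percent circular. Rings named for being called without control 3 or with a replicate block, and the longest whole-exon rings, were chosen after their values were seen. Exon positions and sequences are from GENCODE M21. No label says that the number in sample names pairs libraries. Correlations of same-numbered deviations between APAP and dmPGE2+APAP were -0.01858, 0.007435 and -0.0213, and those of unlike numbers ran from -0.02168 to 0.04016. They showed no pairing but, with many low counts, cannot exclude one.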

Additional observations from a re-analysis of the deposited data

How the results depend on the processing

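Of the values per library, the difference of APAP from control in the share of reads held by members was 0.48 percentage points (exact permutation p = 0.2286 over the groups), and 0.24 to 0.78 over libraries left out (exact permutation p = 0.03214 without APAP 3). It was 0.63 for rings that are 1 annotated exon, 0.45 for whole-exon rings and 0.65 without Nfix among them (exact permutation p = 0.007143, 0.007143 and 0.02143), and the latter 2 were chosen after seeing the data. Without control 3 as well, it was 0.27 for the 229 rings that are 1 exon of an annotated transcript and 0.37 for whole-exon rings without Nfix (0.62 and 0.65 with it). With exonic rings as the denominator it was 0.097 for members (exact permutation p = 0.8464) and 0.333 for whole-exon rings. The difference in summed percent circular was -5.23 points, -13.95 to -0.39 over libraries left out, 15.68 by the median over rings and 14.89 at rings usable in all libraries but control 3. For entries of 0 it was -17.41 points, -21.63 to 3.76 over libraries left out, with 3.76 without control 3. For the read-weighted log2 exon length it was 0.096, and 0.018 to 0.144 over libraries left out (exact permutation p = 0.03929 without control 2). Members minus rings of 2 to 5 exons in percent circular was -11.29 by sums (-12.55 to -10.08 over libraries left out), 3.629 for whole-exon rings, 2.655 by medians and 16.1 by medians of whole-exon rings, the last 3 chosen after seeing the data. The same difference in entries of 0 was 9.24, and 7.66 to 9.70 over libraries left out.

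Members called numbered 2, 1, 3 and 3 for APAP against control, dmPGE2+APAP against APAP, dmPGE2+APAP against control and the joint test. Over libraries left out they ran from 2 to 4, 1 to 2, 2 to 5 and 3 to 4. A minimum of 10 reads gave 1 for APAP against control. No filter gave 4 for dmPGE2+APAP against APAP, 6 for dmPGE2+APAP against control and 9 for the joint test. No TMM scaling gave 6 for dmPGE2+APAP against control and 5 for the joint test. For the 2 dmPGE2+APAP comparisons DESeq2 gave 0 and 0, and limma-voom 0 and 1. Only Neat1 passed by all 3 tools for APAP against control. The Zfp609 log2 fold change from control to APAP of 0.05 became -0.056 without TMM scaling, -1.80 in limma-voom and -0.42 to 0.62 over libraries left out. The Erc1 change from APAP to dmPGE2+APAP of 0.15 ran from -0.44 to 1.22. With the replicate number as a block, possible only for dmPGE2+APAP against APAP because the control columns carry numbers of their own, 3 members passed (Kcnn2 at 2.13, Spen at -1.24 and Pde5a at -3.18), Erc1 stood at -0.030, and the Zfp609 ring lay under the filter in those 6 libraries. No label says that the numbers pair samples, so this is no measure of a weaker or stronger effect. With 4362 back-splice reads in all, control 3 listed 91 members, and its entries of 0 limit what can be said of control.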
